A study of Mus musculus with 6 samples.

Results

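The genes described here carry out DNA replication and prepare cells for S phase. They are 42 of the 55291 genes in the deposited table, taken by symbol from a list of replication factors, deoxynucleotide enzymes, E2F factors and E-type cyclins. Expression was measured by sequencing poly(A) RNA of mouse bone marrow-derived macrophages (BMDM), which are grown in culture from marrow precursors. The study set 3 libraries of BMDM with apoptotic cell (AC) pretreatment against 3 libraries of BMDM without it, and the labels give no strain, genotype, age or sex, nor the origin, dose or timing of the apoptotic cells. Whether replicates are independent cultures or mice is not stated, and the p-values below reflect only library-to-library spread, part of which may be technical.

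As background, replication is prepared in G1, when the origin recognition complex, Cdc6 and Cdt1 load the Mcm2-7 helicase onto DNA. Cdc45 and the GINS complex then switch the helicase on, and polymerases, the PCNA clamp and its loader copy both strands. Most of these genes are transcribed at the start of S phase under E2F factors, which the Rb family holds back until G1 cyclin kinases act. Macrophages grown from marrow divide in response to colony-stimulating factor 1 and stop dividing as they mature.

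Levels are given as TPM, a length-scaled share of all transcripts, with each library rescaled to sum to 1000000. Each difference between the groups is the mean log2(TPM + 1) of AC pretreated libraries less that of untreated ones, shown ± SE, a scale on which changes of low genes look smaller than they are. Depth was 20717426 to 24980843 recovered reads on genes in the AC libraries and 19042049 to 32212701 in the untreated ones. The libraries stood apart in several ways. Lyz2, the lysozyme gene of macrophages, was at 83.7 TPM in untreated replicate 1 and at 9270 TPM or more in the other 5 libraries, while the other 9 macrophage markers were present throughout. A list of 20 trophoblast markers summed to 34.8, 161.7 and 0.6 TPM in AC replicates 1, 2 and 3, against 19.1, 36.8 and 0.2 TPM in untreated replicates 1, 2 and 3. AC replicate 1 had the lowest level of the 6 libraries for 46.8% of the 12603 tested genes, and its levels moved with exon length. Its median deviation from each gene's mean over the 6 libraries was 0.06 in the third of genes with the shortest exons and -0.38 in the third with the longest. AC replicate 3 moved the other way, from -0.12 to 0.20. In bulk RNA, fewer dividing cells and less RNA per cell cannot be told apart.

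All 42 genes were expressed and passed the filter of at least 1 TPM in at least 3 libraries. None differed between the groups by limma with Benjamini-Hochberg adjustment over all 12603 tested genes: 0 of the 42 had an adjusted p under 0.05, against 0% of all genes, and 0 had an unadjusted p under 0.05 (all genes 0.881% lower and 0.421% higher, 164 genes in all). A count-based fit of the recovered reads (voom) called 0 genes, with 99 at an unadjusted p under 0.05, of which 0 were among the 42. The smallest unadjusted p among them was 0.165 by limma. The differences ran from -0.31 to 0.17, with a median of -0.08, beside -0.07 over all genes. Means were lower in AC pretreated libraries for 32 of the 42 and for 70.6% of all genes, so the direction was that of the whole table, and with median-of-ratios scaling it was 23 of the 42 and 52.6% of all genes. The 95% interval of the difference lay within 1 log2 unit of 0 for 39 of the 42 genes, against 87.4% of all genes. The other 3 were Ccne2, Fen1 and Chaf1a. On the log2(TPM + 1) scale, 1 unit is more than 2-fold in TPM for low genes, so 2-fold changes of low genes are not excluded.

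For the 42 genes, the library with the largest median deviation was AC replicate 1. It held the lowest level of the 6 libraries for 31 of the 42 genes, against 46.8% of all tested genes. The median deviation of the 42 genes from their means was -0.34, 0.13 and 0.14 in AC replicates 1, 2 and 3, against 0.14, -0.07 and 0.07 in untreated replicates 1, 2 and 3. Over all tested genes it was -0.18 in AC replicate 1. The log2 values spread more among AC than untreated libraries (SD, n = 3 each) for 37 of the 42, against 73.3% of all genes. The median SDs were 0.27 and 0.15 for the 42 genes, beside 0.29 and 0.16 over all genes. The highest level was in AC replicate 2 for 12 of the 42 genes, against 20.7% of all genes, and in AC replicate 3 for 14, against 24.9%. Without AC replicate 1 the median difference of the 42 genes was 0.08 and 13 of them had lower means, beside a median of 0.01 and 48.3% lower over all genes. Sample quality weights were 0.181, 2.98 and 0.409 for AC replicates 1, 2 and 3, and 1.19, 7.24 and 0.525 for untreated replicates 1, 2 and 3. The weighted fit thus rested mostly on replicate 2 of each group. Its median was 0.13 with 8 lower (all genes 0.00 and 50%). Without weights, leaving out AC replicate 2 gave a median of -0.15 with 35 lower (all genes -0.10 and 76.3%). Leaving out AC replicate 3 gave -0.15 with 34 lower (all genes -0.11 and 69.6%). Among the untreated libraries, leaving out replicate 1 gave -0.02 with 25 lower (all genes -0.04 and 62.1%). Leaving out untreated replicate 2 gave -0.13 with 37 lower (all genes -0.08 and 70.1%), and untreated replicate 3 gave -0.08 with 30 lower (all genes -0.09 and 70.5%). Leaving out 1 library turned the sign for 27 of the 42 genes and moved the difference by over 1.5 times for all but Rfc4 and Rfc5.

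**Figure D1:**
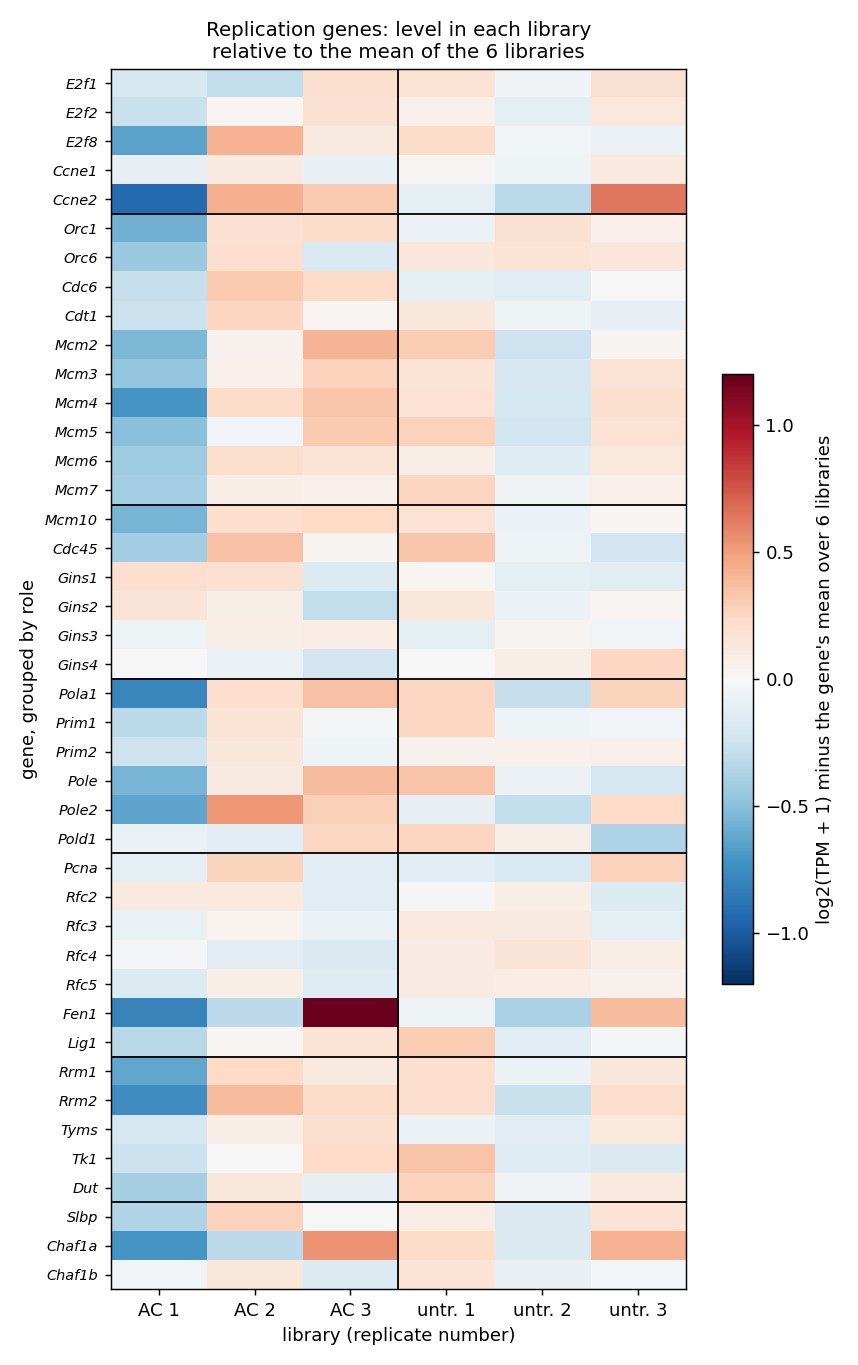
Level of the 42 genes (rows, grouped by role from E2F factors at the top to chromatin assembly at the bottom) in each library (columns, AC left of untreated), as log2(TPM + 1) minus the gene's mean over the 6 libraries. AC replicate 1 is the lowest library for 31 genes, while the GINS and Rfc rows are nearly even.

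The position of AC replicate 1 went with exon length and base composition in the table as a whole. When the trends of each library with exon length and GC content were removed, a step chosen after the data were seen, all 42 genes having a value for both, it was lowest for 19 of the 42 genes and for 23.6% of the 12386 genes with both values. The median deviation of the 42 genes was then -0.16 in AC replicate 1, beside 0.01 over all genes, and their median difference between the groups was 0.01. The 31 genes lowest in AC replicate 1 had a median exon length of 4426 bases and the other 11 of 3154 bases, with a median GC content of 49.3% in both. Over all 42 genes the median exon length was 4045 bases and the median GC content 49.3%, beside 3852.5 bases and 49.2% for all genes. The part of exon length in the position of the 42 genes was not tested.

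Promoter sequences are shown because many replication genes are known E2F targets. RefSeq promoters of GRCm38.p6, 250 bases before to 50 after the start, were at hand for 34 of the 42 genes and were searched on both strands for the E2F words TTTCCCGC, TTTGGCGC, TTTCGCGC and TTTGCCGC. At least 1 word was present in 13 of the 34 (38.2%), against 2.32% of 27025 promoters. The word CCAAT was in 58.8% of the 34 and 37.9% of all promoters, and the word TTTGAA, found in promoters of genes of mitosis, in 14.7% and 18.1%. The stretches below run from 120 bases before the start to 30 after it, 5′ to 3′ on the gene's strand, with E2F words of either strand in capitals. Orc1 lies at chr4:108579334-108579483 (plus strand), Mcm3 at chr1:20820283-20820432 (minus strand), Mcm6 at chr1:128359676-128359825 (minus strand), Pole2 at chr12:69228161-69228310 (minus strand), Gins3 at chr8:95633439-95633588 (plus strand) and Rfc3 at chr5:151651179-151651328 (minus strand). Orc1, Mcm3, Mcm6 and Pole2 are shown because they were lowest in AC replicate 1, and Gins3 and Rfc3 because they hold such words and were not.
Orc1: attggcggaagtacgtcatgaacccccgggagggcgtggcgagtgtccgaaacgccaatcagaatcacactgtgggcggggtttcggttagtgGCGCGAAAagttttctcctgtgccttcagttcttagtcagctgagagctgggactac
Mcm3: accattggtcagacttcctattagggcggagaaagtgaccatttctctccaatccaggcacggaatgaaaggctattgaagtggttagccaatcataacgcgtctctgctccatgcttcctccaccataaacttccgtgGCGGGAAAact
Mcm6: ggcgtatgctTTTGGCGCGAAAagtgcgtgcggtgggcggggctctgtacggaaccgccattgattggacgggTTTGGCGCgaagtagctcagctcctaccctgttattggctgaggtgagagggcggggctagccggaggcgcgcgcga
Pole2: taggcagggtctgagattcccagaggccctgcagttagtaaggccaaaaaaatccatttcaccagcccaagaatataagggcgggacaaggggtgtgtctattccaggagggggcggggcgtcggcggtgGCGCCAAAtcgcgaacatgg
Gins3: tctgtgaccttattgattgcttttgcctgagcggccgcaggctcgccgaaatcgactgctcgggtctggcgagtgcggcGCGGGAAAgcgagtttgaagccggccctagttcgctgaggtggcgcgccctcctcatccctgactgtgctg
Rfc3: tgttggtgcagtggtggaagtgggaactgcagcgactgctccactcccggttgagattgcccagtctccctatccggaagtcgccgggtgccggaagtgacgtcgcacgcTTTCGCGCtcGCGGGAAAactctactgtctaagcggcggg
Mcm6 held 3 words, 2 of them overlapping in a run with 1 word on each strand, and Rfc3 held 2 next to its start. Of the 13 genes with a word, 10 were lowest in AC replicate 1, and of the 21 without, 17 were, so the words did not separate the genes by their values. A match is a description of the letters and was not tested as a binding site.

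The E2F factors drive the programme (E2f1, E2f2) or limit it (E2f8), and the E-type cyclins Ccne1 and Ccne2 activate Cdk2 at the G1/S boundary. E2f1 had 36.6, 33.7 and 47.8 TPM in AC replicates 1, 2 and 3, against 47.3, 40.6 and 47.4 TPM in untreated replicates 1, 2 and 3. AC replicates 1 and 2 were below every untreated library and AC replicate 3 was above them all, a log2 difference of -0.20 ± 0.17, which ranged from -0.35 to -0.10 on leaving out 1 library. Its level was 10.8 to 15.4 times that of E2f2, the lowest of the 3 E2F genes in all 6 libraries. Ccne1 was even, with 6.88, 8.14 and 6.97 TPM in AC libraries and 7.52, 7.14 and 8.18 TPM in untreated ones. Ccne2 spread most in this set, at 1.83, 6.24 and 5.68 TPM in AC replicates 1, 2 and 3, against 3.94, 3.30 and 7.30 TPM in untreated replicates 1, 2 and 3. Its value in AC replicate 1 rested on 58 reads, with a 95% counting interval of 1.39 to 2.37 TPM that excludes the other 5 values. E2f2 and E2f8 differed by -0.05 ± 0.22 and -0.08 ± 0.29, and E2f8 was lowest, at 3.24 TPM, in AC replicate 1 and between 5.29 and 7.83 TPM in the others.

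All 10 genes of origin recognition and helicase loading were lowest in AC replicate 1. Mcm6, a subunit of the Mcm2-7 ring, lies at chromosome 1, 128331590 to 128359664 on mm10 and had 54.7, 85.9 and 82.9 TPM in AC replicates 1, 2 and 3, against 78.6, 66.4 and 80.9 TPM in untreated replicates 1, 2 and 3. AC replicate 1 was below all untreated libraries and the other 2 AC libraries were above them all. The group means of 74.5 ± 17.2 and 75.3 ± 7.79 TPM (SD, n = 3 each) differed by -0.04 ± 0.20 on the log2 scale, and the sign turned without AC replicate 1 (0.17) or untreated replicate 3 (0.02) and with median-of-ratios scaling (0.03). Mcm4, another ring subunit, had 17.7, 34.6 and 37.4 TPM in AC libraries and 33.2, 25.4 and 33.8 TPM in untreated ones. AC replicates 2 and 3 were above, and AC replicate 1 below, every untreated library. Mcm2, Mcm3, Mcm5 and Mcm7 followed, with differences of -0.05 ± 0.26, -0.09 ± 0.21, -0.15 ± 0.23 and -0.19 ± 0.18, and without AC replicate 1 the sign turned for all of these but Mcm7. The ring subunits kept an order in every library, with Mcm6 highest, Mcm3 next and Mcm2 lowest, and the highest level was 3.99 to 5.36 times the lowest.

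The loading factors were also lowest in AC replicate 1 and differed among themselves in the other libraries. Cdt1, which brings the helicase to origins, had 48.7, 70.1 and 59.2 TPM in AC replicates 1, 2 and 3, against 64.4, 55.9 and 54.7 TPM in untreated replicates 1, 2 and 3. The AC values bracketed the untreated ones, a difference of 0.01 ± 0.17 that turned sign on leaving out AC replicate 2 (-0.11) or untreated replicate 2 (-0.02) or 3 (-0.03). Orc6, a subunit of the origin recognition complex, had 9.47, 15.4 and 11.6 TPM in AC libraries, against 14.7, 14.9 and 14.7 TPM in untreated ones. Its untreated libraries were nearly identical and its AC libraries spread on both sides of them, with a difference of -0.29 ± 0.20 (-0.13 without AC replicate 1). Orc1, a subunit that binds ATP, was the lowest of the 42 genes and rested on 27 to 81 reads. It was at 0.856, 2.15 and 2.23 TPM in AC libraries and 1.64, 2.15 and 1.89 TPM in untreated ones. Cdc6, which joins the complex to load the helicase, had the highest difference of the 42 genes, 0.17 ± 0.23. It was at 3.12, 5.21 and 4.84 TPM in AC libraries, against 3.59, 3.55 and 3.98 TPM in untreated ones, so that 2 AC libraries were above and 1 below all untreated libraries.

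**Figure D2:**
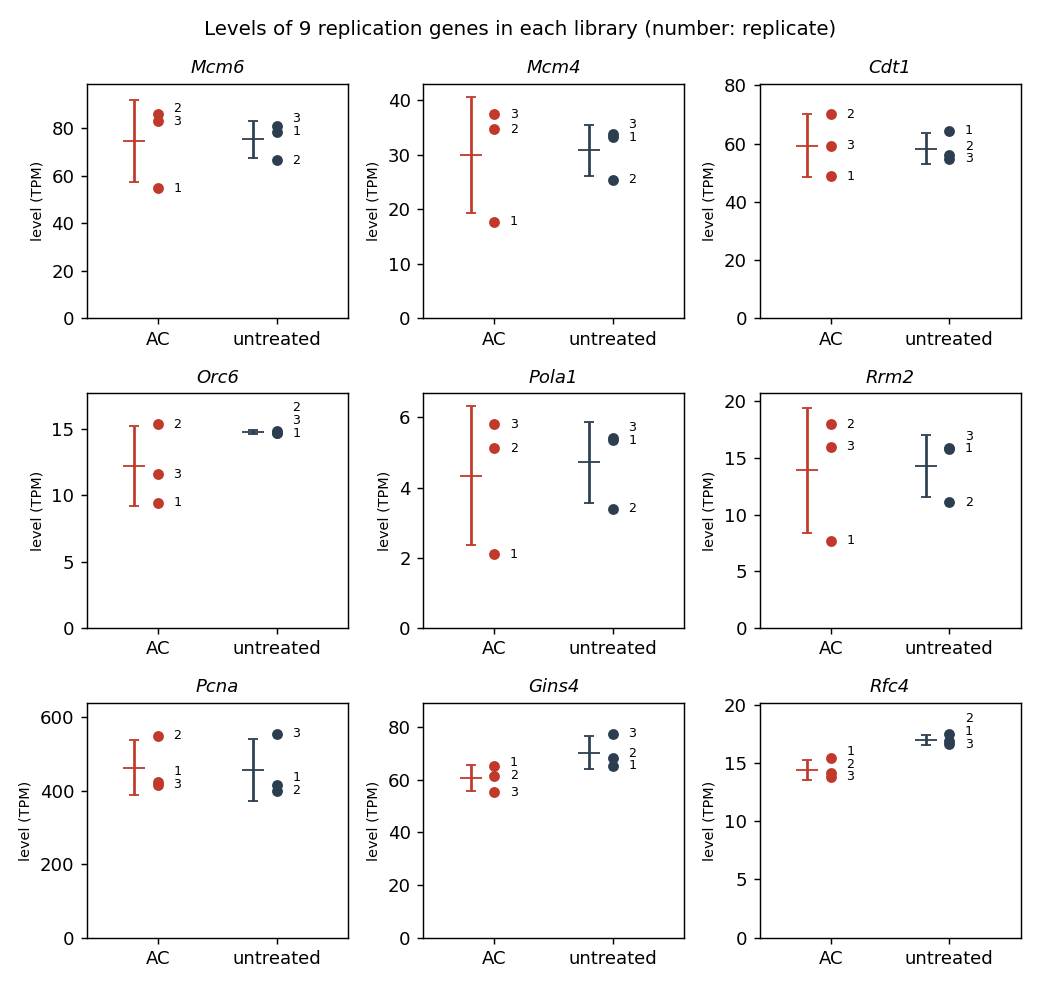
TPM of 9 genes in each library (points, numbered by replicate), with mean ± SD of 3 libraries beside them, AC left of untreated. In the upper 6 panels AC replicate 1 is the lowest point, and Gins4 and Rfc4 are the genes whose groups do not overlap.

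Helicase activation divided into genes that were low in AC replicate 1 and the GINS genes, which were not. Exon lengths were 7692 and 3506 bases for Mcm10 and Cdc45. For Gins1, Gins2, Gins3 and Gins4 they were 1516, 4097, 2709 and 1349 bases. The part of exon length in this division was not tested. Mcm10, which helps to open the helicase, and Cdc45, a part of the active helicase, were at 2.65 and 3.52 TPM in AC replicate 1 and at 4.14 TPM or more in each other library. Gins4 was highest of the 4 GINS subunits in all libraries, with 65.1, 61.5 and 55.3 TPM in AC replicates 1, 2 and 3, against 65.2, 68.4 and 77.4 TPM in untreated replicates 1, 2 and 3. Each AC library was below each untreated one, although AC replicate 1 and untreated replicate 1 were almost level, and the difference of -0.21 ± 0.14 (adjusted p = 1 by limma) ranged from -0.26 to -0.14 on leaving out 1 library. Gins1 had 17.1, 16.9 and 13.2 TPM in AC libraries and 15.0, 13.6 and 13.4 TPM in untreated ones, a difference of 0.15 ± 0.17. Gins2 and Gins3 differed by -0.05 ± 0.19 and 0.07 ± 0.18. Although the 4 GINS proteins form one complex, Gins4 stood 9.47 to 14.6 times above Gins3, the lowest, on the TPM scale. Of the exon bases of Gins2, 67.3% overlap Gse1 on the other strand, so its values are uncertain.

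Of the 6 polymerase and primase genes, 5 were lowest in AC replicate 1. Pola1, the catalytic subunit of the polymerase that starts each strand, had 2.10, 5.12 and 5.81 TPM in AC replicates 1, 2 and 3, against 5.35, 3.39 and 5.42 TPM in untreated replicates 1, 2 and 3. Pole2, a subunit of the leading-strand polymerase, had 3.14, 8.18 and 6.84 TPM in AC libraries and 4.97, 4.23 and 6.52 TPM in untreated ones. In both, AC replicate 1 was exceeded 2.44-fold and 2.18-fold by the lower of the other AC values. Pole, its catalytic subunit, was at 1.39, 2.80 and 3.59 TPM in AC libraries, against 3.48, 2.36 and 2.06 TPM in untreated ones. The differences were -0.16 ± 0.33 for Pola1, 0.11 ± 0.32 for Pole2 and -0.05 ± 0.30 for Pole, and became 0.20, 0.46 and 0.22 without AC replicate 1. Pold1, the catalytic subunit of the lagging-strand polymerase, had 20, 19.1 and 25.3 TPM in AC libraries and 25.6, 22.3 and 16.2 TPM in untreated ones, and its lowest library was untreated replicate 3. Prim1, the catalytic subunit of primase, which lays down RNA primers, had 6.90, 10 and 8.85 TPM in AC libraries, against 10.8, 8.54 and 8.70 TPM in untreated ones. AC replicate 1 was below every untreated library and the other AC values lay among them, with a difference of -0.12 ± 0.20. Prim2, the other primase subunit, was lowest in AC replicate 1, at 5.79 TPM, and differed by -0.10 ± 0.18.

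Pcna, the sliding clamp that tethers polymerases, was by far the most abundant of the 42 genes and took 34.9 to 42.8% of their summed TPM. It had 422, 549 and 416 TPM in AC replicates 1, 2 and 3, against 414, 400 and 554 TPM in untreated replicates 1, 2 and 3. One library of each group was high and the other 4 were between 400 and 422 TPM, with a difference of 0.02 ± 0.18 and a 95% interval of -0.39 to 0.43. A pseudogene, Pcna-ps2, was listed at 7.55 to 14.8 TPM, so some reads can be shared. The genes of the small clamp loader subunits, Rfc2, Rfc3, Rfc4 and Rfc5, varied little, with a highest level at most 1.27 times the lowest over the 6 libraries. The large subunit gene Rfc1, not among the 42, had 21.2, 32.2 and 42.1 TPM in AC libraries. In untreated ones it had 38.4, 33.4 and 36.4 TPM. Rfc4 had 15.4, 14.1 and 13.8 TPM in AC libraries, against 16.9, 17.5 and 16.6 TPM in untreated ones. Its groups did not overlap, and the difference of -0.22 ± 0.15 (unadjusted p = 0.165, adjusted p = 1 by limma) stayed between -0.27 and -0.19 on leaving out 1 library. Groups without overlap and with lower AC values were found for 2 of the 42 genes, Gins4 and Rfc4, against 3.48% of all genes, and with higher AC values for 0 of the 42, against 0.936%. Overlap was counted on TPM only, where AC replicate 1 had a median deviation of -0.18 over all genes. With median-of-ratios scaling the differences were -0.14 for Gins4 and -0.16 for Rfc4. Rfc2 had 32.5, 32.8 and 27.3 TPM in AC libraries, against 29.8, 31.5 and 26.8 TPM in untreated ones, and Rfc3 and Rfc5 differed by -0.07 ± 0.15 and -0.16 ± 0.16.

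Lig1 and Fen1 finish the lagging strand by joining and trimming its fragments. Lig1 had 17.9, 23.1 and 25.5 TPM in AC libraries, against 28.2, 20.7 and 22.5 TPM in untreated ones. Fen1 stood at 1.73, 2.84 and 9.80 TPM in AC replicates 1, 2 and 3, against 3.56, 2.63 and 5.17 TPM in untreated replicates 1, 2 and 3. It had the widest range of the 42 genes, 5.66-fold, and AC replicate 3 lay far above the others. Without AC replicate 3 the difference was -0.53, against 0.05 ± 0.48 over all libraries and 0.46 without AC replicate 1. Of its exon bases, 84.2% overlap Tmem258 or Gm10143 on the other strand, and it rested on 38 to 165 reads.

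Among genes of deoxynucleotide supply, all 5 were lowest in AC replicate 1. Rrm2, the regulated subunit of ribonucleotide reductase, had 7.68, 18.0 and 16.0 TPM in AC replicates 1, 2 and 3, against 15.8, 11.1 and 15.9 TPM in untreated replicates 1, 2 and 3. Rrm1, the large subunit, had 7.62, 14.7 and 13.3 TPM in AC libraries, against 14.2, 11.7 and 13.7 TPM in untreated ones. For both, AC replicate 1 was below and AC replicate 2 above every untreated library. Their differences of -0.10 ± 0.31 and -0.18 ± 0.24 became 0.25 and 0.08 without AC replicate 1. The 2 subunits were close in every library, within 1.01 to 1.23 times of each other. Dut, which removes dUTP, had 7.27, 11.1 and 9.25 TPM in AC libraries, against 12.3, 9.65 and 10.9 TPM in untreated ones, a difference of -0.24 ± 0.20 (-0.10 without AC replicate 1). Tyms, which makes dTMP, and Tk1, which salvages thymidine, differed by 0.04 ± 0.22 and -0.02 ± 0.22.

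New DNA is packaged with histones whose mRNAs are bound by Slbp and which are deposited by the CAF-1 subunits Chaf1a and Chaf1b. Slbp had 13.5, 21.6 and 17.6 TPM in AC replicates 1, 2 and 3, against 18.8, 15.6 and 19.8 TPM in untreated replicates 1, 2 and 3. AC replicate 1 was again below and AC replicate 2 above all untreated libraries. Chaf1b was even, at 9.30, 10.6 and 8.39 TPM in AC libraries and 10.7, 8.87 and 9.37 TPM in untreated ones. Chaf1a had 2.02, 2.99 and 6.20 TPM in AC libraries, against 4.76, 3.39 and 5.61 TPM in untreated ones, and the lowest difference of the 42 genes, -0.31 ± 0.34. That difference was -0.04 without AC replicate 1 and -0.67 without AC replicate 3, and 52.5% of its exon bases overlap Ubxn6 on the other strand.

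**Figure D3:**
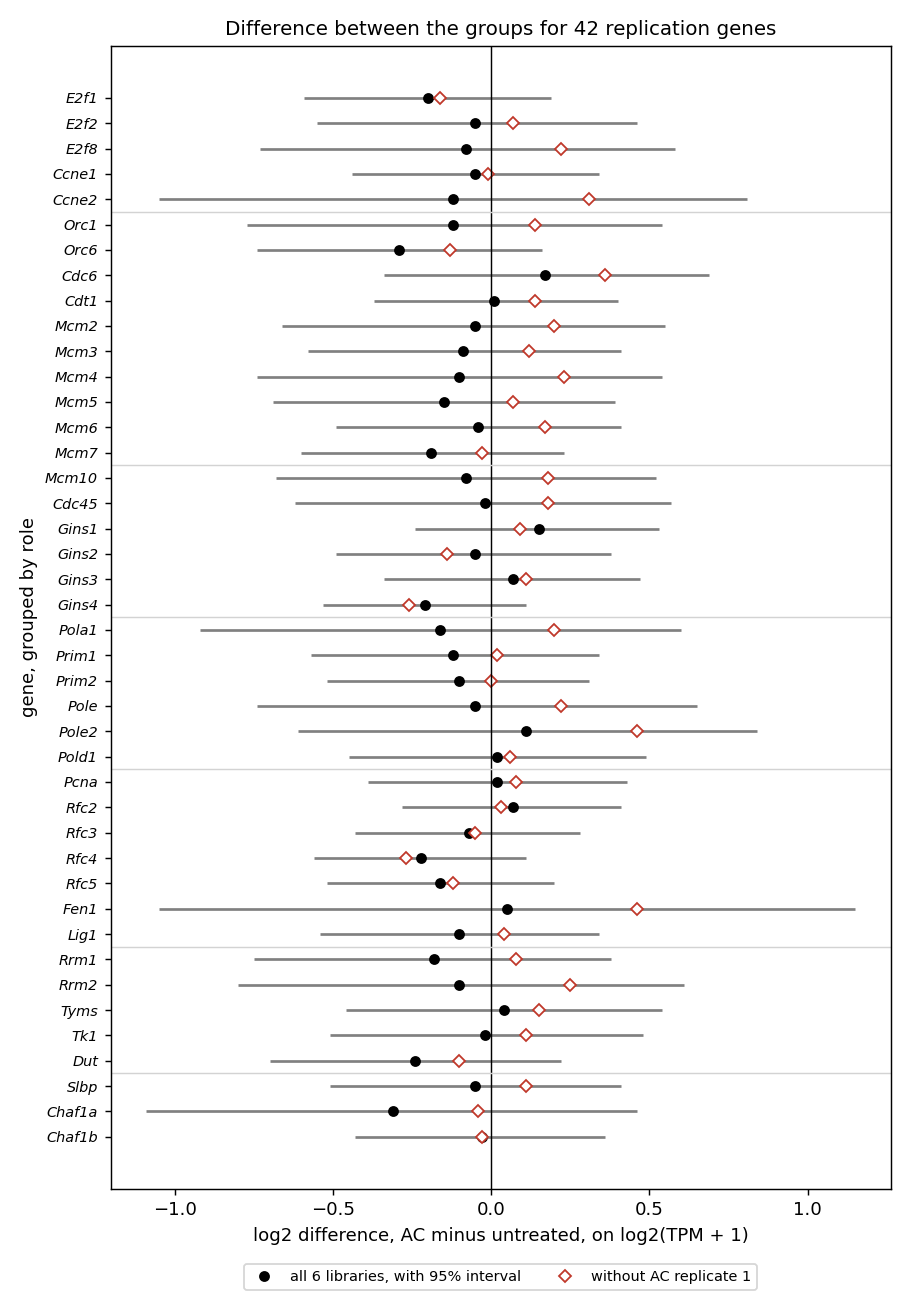
Log2 difference, AC minus untreated, of the 42 genes with its 95% interval (black) and without AC replicate 1 (open diamonds). Every interval includes 0, and 20 of the 42 differences change sign without that library.

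Replicate number 3 of each group lacked nearly all trophoblast transcripts, so the comparison was also read within each set of libraries. Among the 4 libraries that held such transcripts the median difference of the 42 genes was -0.17, with 31 lower (all genes -0.13 and 71.2%), and between the replicate 3 libraries it was 0.05, with 15 lower (all genes 0.05 and 43.7%). Thymocyte and T cell markers, a common source of apoptotic cells, summed to 11.6 to 19.5 TPM in AC libraries and 11.4 to 17.5 TPM in untreated ones. Of these 19 markers, 17 were below 1 TPM in all libraries, with Cd2, Cd3d, Cd8b1 and Themis at 0, and Cd4 held most of the sum. Granulocyte and progenitor markers summed to 29.2 to 46.3 TPM in AC libraries and 26.3 to 59.8 TPM in untreated ones. Erythroid markers summed to 7.8, 19.8 and 4.1 TPM in AC replicates 1, 2 and 3, against 4.4, 4.7 and 2.5 TPM in untreated ones. All 8 fibroblast markers were below 1 TPM. The part of other cells in the levels of replication genes was not tested.

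Genes around the replication programme gave a similar picture. Of 56 further replication genes, from Rpa and Orc subunits to Dnmt1 and Uhrf1, 54 were tested and 0 passed. Their median difference was -0.02, with 34 lower (63%), beside -0.07 and 70.6% over all genes. AC replicate 1 was lowest for 33 (61.1%), against 46.8% of all genes. Of 36 regulators of E2F, Rb and the DREAM complex, 33 were tested and 0 passed, with a median of -0.04. Among them, Cdkn1c and Cdkn1a are given because they had the smallest unadjusted p by limma. The Cdk inhibitor gene Cdkn1c had 12.9, 25.4 and 19.7 TPM in AC libraries, against 6.07, 6.02 and 18.0 TPM in untreated ones, a difference of 1.0 ± 0.41 (adjusted p = 1 by limma). Its AC libraries were above untreated replicates 1 and 2 and overlapped untreated replicate 3. Cdkn1a, which encodes the inhibitor p21, had 175, 111 and 128 TPM in AC libraries, against 211, 196 and 157 TPM in untreated ones, a difference of -0.46 ± 0.20 (adjusted p = 1 by limma).

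Genes of mitosis and G2/M are the closest neighbours of the S phase genes in the cell cycle. Of 53 tested, 51 had lower AC means, against 70.6% of all genes, and 0 passed. Their median difference was -0.23, beside -0.08 for the 42 replication genes and -0.07 for all genes. Their median deviation was -0.39, 0.06 and 0.04 in AC replicates 1, 2 and 3, against 0.29, 0.09 and -0.04 in untreated replicates 1, 2 and 3. Both lists were thus low in AC replicate 1. In untreated replicate 1 the median deviation was 0.14 for the replication genes and 0.29 for the mitosis list, and in untreated replicate 2 it was -0.07 and 0.09. Cks2, a kinase cofactor gene, is given because it had the smallest unadjusted p of the list by limma. It had 11.8, 8.68 and 12.1 TPM in AC libraries, against 17.1, 15.3 and 17.2 TPM in untreated ones. Its difference was -0.58 ± 0.18 (adjusted p = 1 by limma), and its groups did not overlap. Groups without overlap and with lower AC values were found for 4 of the 53 genes, against 3.48% of all genes. The difference between the lists was not tested.

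**Figure D4:**
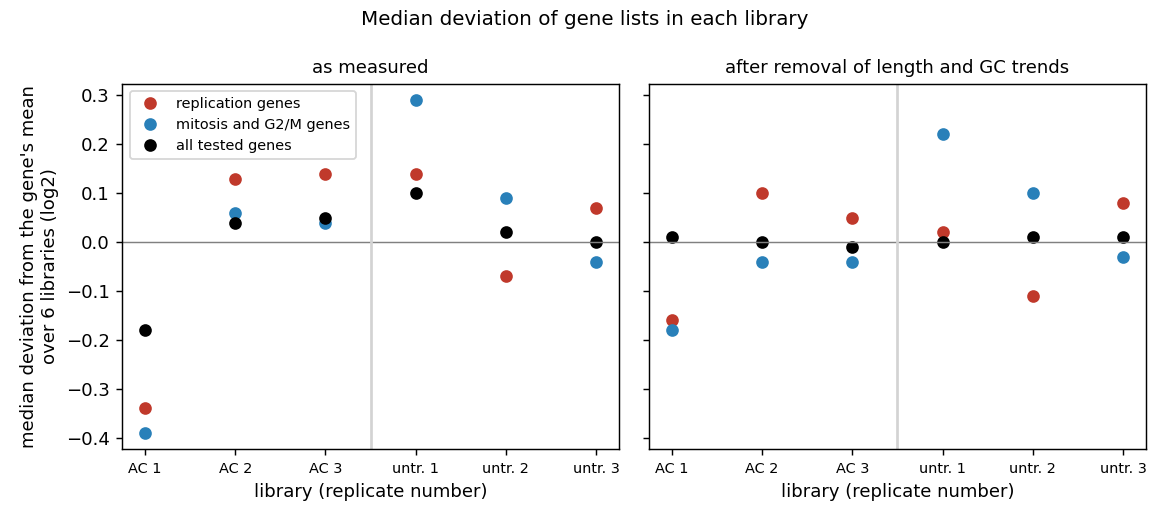
Median deviation of the 42 replication genes, the mitosis and G2/M genes and all tested genes from each gene's mean over the 6 libraries (log2), by library, before and after removal of exon length and GC trends. AC replicate 1 is at -0.34 for the replication genes before and at -0.16 after.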

How the data were processed

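Poly(A) RNA of 6 BMDM libraries was sequenced, 3 AC pretreated and 3 untreated, grouped by their titles. Tools and build named in the submitters' processing notes, without role or order, are featureCounts 2.0.3, Subread, STAR 2.7.10a and mm10. The sources used here do not state the annotation, the strand setting or the handling of shared reads. One table was deposited by the authors, titled TPM, but its signal columns do not sum to 1000000. After multiplication by merged GENCODE M21 exon lengths and division by 8.57, the deposited signal gave whole reads in all 6 libraries for 98.5% of 23829 genes (tolerance 0.02 reads), so it is a count per exon base, not scaled for depth. Each library was rescaled to TPM. The count of unused columns was 0, as was that of rows lacking a gene name.

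Testing used limma 3.58.1 in R 4.3.3 (eBayes with trend) on log2(TPM + 1) of genes reaching 1 TPM in 3 or more libraries, 2-sided, Benjamini-Hochberg over 12603 genes, threshold 0.05. The design had assumed values already in TPM. Intervals from reads are exact Poisson and cover counting error only. The test was checked on simulated data with known changes, where it found large changes, missed most small ones and made more false calls than the threshold allows. The simulated noise was independent for each gene, without a shift of a whole library. In the data AC replicate 1 was lowest for 46.8% of tested genes, so the simulated rates need not hold for them. Chi-square tests of recovered reads found every pair of replicates to differ by more than sampling noise, so none was merged.

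Members and lists were chosen with earlier results of these data known. In each role group the 2 most abundant genes and the gene with the smallest p were named with every library's value, and other members, chosen after their values were seen, were added. Cdkn1c, Cdkn1a and Cks2 were named for the smallest unadjusted p values of their lists. Gene positions and exon overlaps are from GENCODE M21 and promoters from RefSeq. Alternatives changed the pseudocount, the filter, the scaling or the variance model, added a replicate block or a trophoblast term, used subsets of libraries, or left out each library. Voom on recovered reads and removal of length and GC trends were chosen after seeing the data. Figures were drawn with matplotlib 3.10.9, and the remaining steps ran in Python 3.11.15 with scipy 1.17.1, numpy 2.4.6 and pandas 2.3.3.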

Additional observations from a re-analysis of the deposited data

How the results depend on the processing

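Under every alternative with a test, 0 of the 42 genes passed the threshold. The count over all genes was 0 except for 1 without the variance trend, 16 with values as deposited and 276 with sample quality weights. Those weights fell mostly on AC replicate 2 (2.98) and untreated replicate 2 (7.24), with 0.181 for AC replicate 1. The weighted counts therefore rest largely on 1 library of each group. With those weights 10 of the 42 genes and 3475 of all genes had an unadjusted p under 0.05, and 8 of the 42 had lower means, a median of 0.13 (all genes 0.00). That median was -0.04 with a pseudocount of 5, -0.14 with values as deposited, 0.05 between the replicate 3 libraries and between -0.15 and 0.08 on leaving out 1 library. The replicate block gave 0 calls and a median of -0.08, with 225 genes at an unadjusted p under 0.05, against 164 without it. Same-numbered libraries did not deviate together (r = -0.06, 0.01 and 0.17), and the labels link them by number only. Both replicate 3 libraries, however, lacked nearly all trophoblast transcripts. Counting error is largest for the 6 genes with under 100 reads in some library.

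The following log2 differences have, before rounding, the opposite sign to the value over all libraries, and the cause was not tested. With median-of-ratios scaling these were E2f2 0.00, Ccne1 0.01, Mcm2 0.01, Mcm6 0.03, Cdc45 0.03, Gins2 0.01, Tk1 0.05, Slbp 0.01 and Chaf1b 0.03. With TMM scaling (unweighted) these were Mcm6 0.02, Cdc45 0.02, Tk1 0.04, Slbp 0.00 and Chaf1b 0.02. With values as deposited these were Cdt1 -0.06, Pold1 -0.05, Pcna -0.05, Rfc2 0.00, Fen1 -0.01 and Tyms -0.01. With sample quality weights these were E2f2 0.10, E2f8 0.33, Ccne1 0.11, Ccne2 0.59, Orc1 0.01, Mcm2 0.22, Mcm3 0.19, Mcm4 0.32, Mcm5 0.13, Mcm6 0.28, Mcm7 0.04, Mcm10 0.20, Cdc45 0.30, Gins2 0.07, Pola1 0.34, Prim1 0.12, Prim2 0.06, Pole 0.13, Pold1 -0.16, Lig1 0.09, Rrm1 0.20, Rrm2 0.48, Tk1 0.10, Dut 0.07, Slbp 0.33 and Chaf1b 0.15. Among the 4 libraries with trophoblast transcripts these were Ccne1 0.03, Cdt1 -0.04, Gins2 0.08, Pold1 -0.28, Fen1 -0.33, Slbp 0.00 and Chaf1b 0.02. By voom on recovered reads these were Mcm6 0.00, Tk1 0.02 and Chaf1b 0.01. With length and GC trends removed these were E2f2 0.03, E2f8 0.02, Ccne1 0.03, Mcm2 0.05, Mcm3 0.00, Mcm6 0.04, Mcm10 0.01, Cdc45 0.06, Gins2 0.03, Pole 0.04, Tk1 0.08, Slbp 0.01 and Chaf1b 0.06. On leaving out 1 library the sign turned for 27 genes, with these ranges: E2f2 -0.15 to 0.07, E2f8 -0.30 to 0.22, Ccne2 -0.37 to 0.31, Orc1 -0.26 to 0.14, Cdt1 -0.11 to 0.14, Mcm2 -0.27 to 0.20, Mcm3 -0.24 to 0.12, Mcm4 -0.29 to 0.23, Mcm5 -0.34 to 0.07, Mcm6 -0.15 to 0.17, Mcm10 -0.22 to 0.18, Cdc45 -0.21 to 0.18, Gins2 -0.14 to 0.08, Pola1 -0.37 to 0.20, Prim1 -0.22 to 0.02, Pole -0.25 to 0.22, Pole2 -0.12 to 0.46, Pold1 -0.16 to 0.16, Pcna -0.11 to 0.17, Fen1 -0.53 to 0.46, Lig1 -0.21 to 0.04, Rrm1 -0.35 to 0.08, Rrm2 -0.31 to 0.25, Tyms -0.04 to 0.15, Tk1 -0.13 to 0.15, Slbp -0.20 to 0.11 and Chaf1b -0.11 to 0.04.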
